A study of Mus musculus with 6 samples.

Results

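The transcription factors that set up and carry the enteroendocrine fate were followed in the crypt RNA-Seq of a mouse model of Lynch syndrome. The 9 genes Neurog3, Neurod1, Pax4, Pax6, Insm1, Isl1, Fev, Nkx2-2 and Rfx6 were taken by symbol from the 18049 genes of the deposited table, by a rule that uses no measured value. The list itself was chosen with earlier results of these data known. All 9 were in the table and all 9 passed the filter on low values, which 16670 genes passed. Total RNA was sequenced from colonic crypts of 3 control mice and 3 mice given GSK503, an inhibitor of the histone methyltransferase EZH2, with 1 library per mouse. The comparison asks how crypt transcripts differ after EZH2 inhibition in these mice.

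Both groups carried the same alleles on a C57BL/6J background: a LoxP-flanked gene deleted by a Villin-Cre transgene, which acts in intestinal epithelium, and a humanized knock-in of the TgfbRII gene. Mice of both groups ate a Western-style diet from 8 weeks of age. The treated group received GSK503 at 200 μg/kg through the tail vein over 9 weeks, and the control group received the vehicle, 20% captisol in PBS. The ages at collection are not given in the sources used here. Nothing in the labels speaks of pooled animals.

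Enteroendocrine cells are the scattered hormone-secreting cells of the gut lining. They arise in the crypt from secretory progenitors in which Notch signaling is low and Atoh1 is on, and a short pulse of Neurog3 commits a cell to the endocrine fate. Neurod1, Pax4, Insm1, Nkx2-2 and Rfx6 act after Neurog3, Pax6 and Isl1 act in the choice and upkeep of hormone-producing types, and Fev is best known from serotonin-producing cells. Because the cells are rare, their transcription factors make up little of the RNA of a whole crypt, and in bulk RNA fewer enteroendocrine cells and less of a transcript per cell cannot be told apart.

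The libraries held between 108162848 and 135085027 estimated counts, and the 9 factors took few of them, with 13 counts in the lowest library for Fev and 313 in the highest for Neurod1. A count of 3 was worth between 0.0228 and 0.0271 in the deposited unit, TMM-scaled CPM, in which each library is scaled by its TMM factor. The epithelial markers Epcam, Krt8 and Cldn7 summed to between 6736 and 7748 in control mice and between 7254 and 8512 in treated mice. Expression of sex-linked genes separated the groups. Xist read 0.419, 0.805 and 0.936 in the control mice against 1236, 825 and 982 in the treated mice, and the Y-linked Uty read between 42.5 and 53.7 against between 0.670 and 1.08. Sex and GSK503 therefore cannot be told apart in any comparison of these groups. Ezh2, the transcript of the drug's target, had values of 46.7, 37.5 and 46.5 in control mice and 36.6, 35.2 and 36.3 in treated mice, a log2FC of -0.27 (SE 0.10, limma adjusted p = 0.291).

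The promoter stretches of 4 factors are shown for the head of the cascade, Neurog3, and for the 3 factors with the lowest log2FC, Neurod1, Rfx6 and Insm1. They are read on the gene's strand from GRCm39, directly before the start of the canonical GENCODE transcript: chr10:61968612-61968861 (plus strand) for Neurog3, chr10:51553602-51553851 (plus strand) for Rfx6, chr2:146063591-146063840 (plus strand) for Insm1, and for Neurod1 the far end of its window, chr2:79287295-79287348 (minus strand), the part that holds no annotated exon. Capitals mark the letters CANNTG, the E-box word that basic helix-loop-helix factors such as Neurog3 and Neurod1 recognise.
Neurog3: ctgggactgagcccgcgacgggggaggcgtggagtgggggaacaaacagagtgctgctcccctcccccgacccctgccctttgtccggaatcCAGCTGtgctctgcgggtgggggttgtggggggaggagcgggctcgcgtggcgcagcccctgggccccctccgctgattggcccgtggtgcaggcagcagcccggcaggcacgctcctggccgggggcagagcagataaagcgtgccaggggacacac
Neurod1: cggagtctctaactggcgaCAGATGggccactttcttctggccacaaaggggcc
Rfx6: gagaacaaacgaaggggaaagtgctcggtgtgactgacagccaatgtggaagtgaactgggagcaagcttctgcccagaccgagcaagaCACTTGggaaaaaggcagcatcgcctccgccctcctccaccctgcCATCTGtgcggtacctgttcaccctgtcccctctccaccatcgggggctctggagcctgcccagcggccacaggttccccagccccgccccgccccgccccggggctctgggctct
Insm1: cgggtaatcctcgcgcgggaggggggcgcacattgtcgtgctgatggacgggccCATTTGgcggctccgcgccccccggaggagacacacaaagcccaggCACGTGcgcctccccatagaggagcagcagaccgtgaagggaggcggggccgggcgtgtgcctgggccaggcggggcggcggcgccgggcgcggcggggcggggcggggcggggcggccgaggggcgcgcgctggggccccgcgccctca

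The word CANNTG reads the same on both strands as a pattern, and it stood at least once in the 250 bases before the start of 6 of the 9 genes, against 62.3% of the promoters of all genes tested. Neurod1 and Nkx2-2 held 3 words each, Insm1 and Rfx6 held 2, and Neurog3 and Isl1 held 1, whereas the windows of Pax4, Pax6 and Fev held none. The narrower word CAGATG or its complement CATCTG, one of the CANNTG words, was present before Neurod1, Nkx2-2 and Rfx6, which is 3 of 9, against 12% of all promoters. The median GC content of the 9 windows was 64.8%, against 55.6% over all promoters. The ratio of observed to expected CpG ranged from 0.101 in Pax4 to 1.05 in Isl1, with a median of 0.61 against 0.59. Matches of letters are a description of these windows only.

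Per kb of the canonical transcript, the scale on which levels of different genes can be set side by side, Neurod1 had the highest mean level in control mice, 0.698 ± 0.156 per kb (SD, n = 3). It was followed by Nkx2-2 at 0.621, Pax4 at 0.406, Insm1 at 0.367, Neurog3 at 0.339, Rfx6 at 0.307, Isl1 at 0.231, Pax6 at 0.161 and Fev at 0.134. The ranges of the 3 control mice overlapped between every pair of neighbours in this order, so the order of neighbours is not resolved. In treated mice the mean levels per kb ran from Nkx2-2 at 0.520 and Neurod1 at 0.397 down to Rfx6 at 0.185 and Fev at 0.0832. Among the treated mice the ranges of neighbours overlapped as well, except those of Rfx6 and Fev, the lowest pair.

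**Figure D1:**
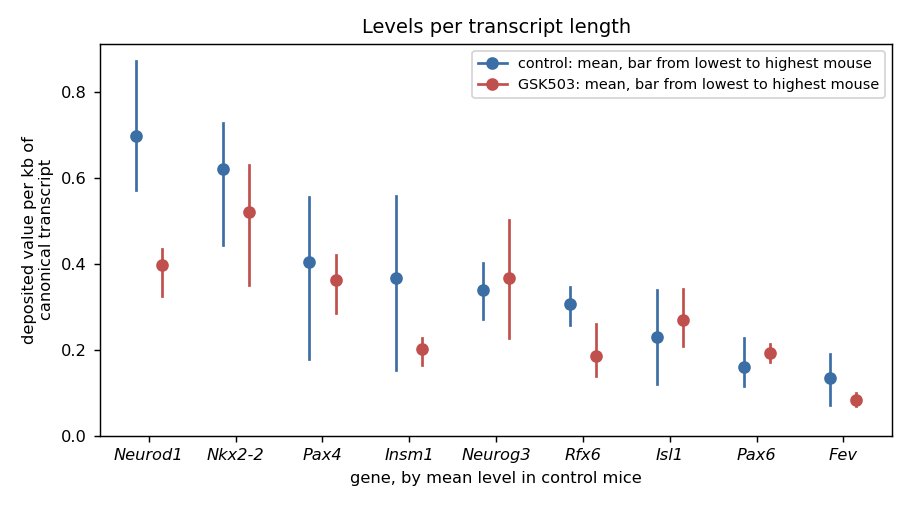
Level per kb of canonical transcript for each factor, ordered by the mean of the control mice, with points at the mean and bars from the lowest to the highest of 3 mice in each group. The control means run from 0.698 for Neurod1 to 0.134 for Fev, and the bars of neighbouring factors overlap in control mice.

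None of the 9 factors was called after GSK503 by limma at the 0.05 threshold on adjusted p with a log2FC of more than 0.25 either way, where 0.642% of all genes tested were called in either direction and 0.144% were called lower. At an unadjusted p below 0.05, 1 of the 9 passed, Neurod1, against 13.3% of all genes. Limma-voom on the recovered counts likewise called 0 factors and placed 1 below an unadjusted p of 0.05. The log2FC was below 0 in 6 factors and above 0 in 3, with a median of -0.25 against -0.01 over all genes tested. The 9 values added up to 7.21, 9.06 and 8.62 in the control mice and to 6.34, 6.66 and 6.60 in the treated mice. Every treated mouse had a lower sum than every control mouse, an order that rested on Neurod1. Without Neurod1 the other 8 values added up to 4.83, 7.50 and 6.85 in the control mice and to 5.15, 5.49 and 5.71 in the treated mice, with control mouse 1 below all treated mice. The sum carries no test because the genes were chosen with results of these mice known.

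**Figure D2:**
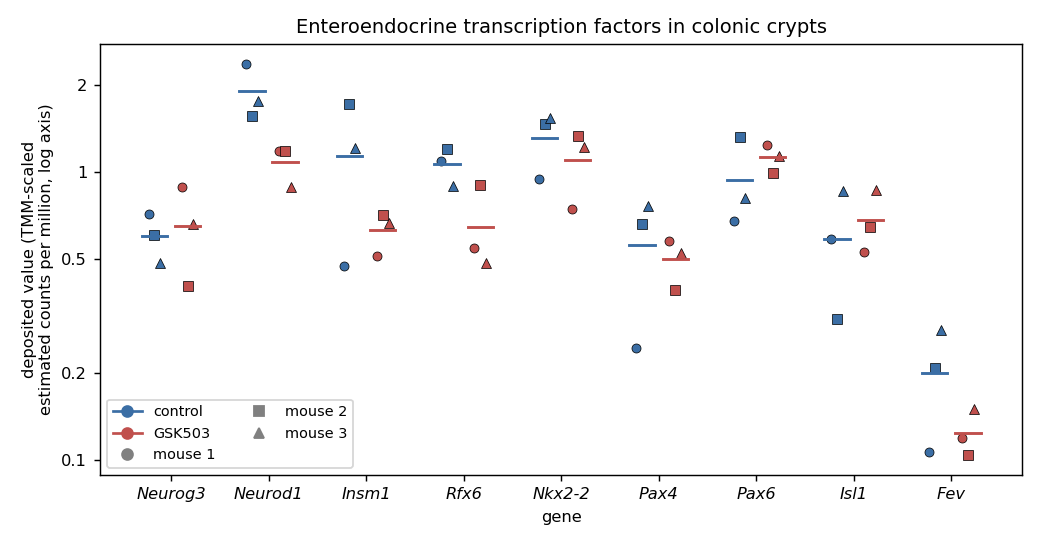
Deposited values of the 9 factors in each mouse on a log axis, with symbols for mouse 1, 2 and 3 of each group and a line at the group mean. Neurod1 is the factor whose 3 treated mice, between 0.890 and 1.19, lie below its 3 control mice, between 1.56 and 2.38; the other factors overlap between groups.

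Neurog3, the factor that triggers the endocrine fate, lies on the plus strand of chromosome 10 at 61968862-61970766 with 2 exons. Control mice 1, 2 and 3 read 0.713, 0.606 and 0.482, whereas GSK503 mice 1, 2 and 3 read 0.889, 0.403 and 0.660. Treated mice held both the highest and the lowest value of the 6. The means were 0.600 ± 0.116 and 0.651 ± 0.243 (SD, n = 3), the log2FC was 0.06 (SE 0.37, limma adjusted p = 0.966), and the exact two-sided permutation p was 0.9. The 95% interval reached from -0.78 to 0.90, or from 0.582-fold to 1.87-fold, so differences in Neurog3 inside that range were not excluded by these mice.

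Neurod1, a helix-loop-helix factor that follows Neurog3 and maintains differentiating endocrine cells, lies on the minus strand of chromosome 2 at 79282865-79287294. Its values were 2.38, 1.56 and 1.77 in control mice and 1.19, 1.18 and 0.890 in treated mice. Each treated mouse was lower than each control mouse, an order seen in 9.22% of all genes tested and in 1 of the 9 factors. The mean was 1.91 ± 0.425 in control and 1.09 ± 0.169 in treated mice (SD, n = 3), a ratio of 0.57. The log2FC was -0.75 (SE 0.28) with a 95% interval from -1.38 to -0.12, and the difference did not pass adjustment over all genes (limma adjusted p = 0.294). The exact two-sided permutation p was 0.1, the smallest that 3 mice against 3 can give. Leaving out each mouse in turn moved the log2FC between -0.87 and -0.58, and control mouse 1 was the library that carried the largest value.

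Rfx6, a winged-helix factor needed for endocrine differentiation, and Insm1, a zinc finger repressor of endocrine progenitors, had the next lowest log2FC. Rfx6 (chromosome 10, 51553852-51606528, plus strand, 19 exons) read 1.09, 1.20 and 0.897 in control mice and 0.542, 0.900 and 0.483 in treated mice. GSK503 mouse 2 stood just above control mouse 3, and the other treated mice lay below all controls. Its log2FC was -0.68 (SE 0.34, 95% interval -1.44 to 0.08, limma adjusted p = 0.432), with an exact permutation p of 0.2.

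Insm1, a single-exon gene on chromosome 2 at 146063841-146066940 (plus strand), read 0.472, 1.73 and 1.21 in control mice and 0.509, 0.709 and 0.666 in treated mice. Control mouse 1 had the lowest value of all 6, and the treated mice lay between it and the other controls. The log2FC was -0.62 (SE 0.44, 95% interval -1.62 to 0.37, limma adjusted p = 0.590). It depended on single control mice, with -1.10 without control mouse 1 and -0.26 without control mouse 2. The SD of the log2 values among the control mice was 0.968, where counting alone gives about 0.139.

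Nkx2-2, a homeodomain factor of endocrine lineages on chromosome 2 at 147019466-147036163 (minus strand), read 0.944, 1.47 and 1.54 in control mice and 0.746, 1.34 and 1.22 in treated mice. The groups overlapped, and mouse 1 was the lowest in each group. Its log2FC was -0.25 (SE 0.33, 95% interval -0.99 to 0.50, limma adjusted p = 0.803) and came to -0.01 without GSK503 mouse 1. Fev, an ETS factor on chromosome 1 at 74920668-74924578 (minus strand), was the lowest of the 9 with 0.107, 0.208 and 0.283 in control and 0.119, 0.104 and 0.150 in treated mice. The treated values stood close to the lowest control value, and their log2 SD of 0.269 was below the 0.376 that counting alone gives. Among control mice the log2 SD was 0.721 against 0.315 from counting. The log2FC of Fev was -0.38 (SE 0.45, 95% interval -1.39 to 0.63, limma adjusted p = 0.771).

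The paired-domain factors and Isl1 had log2FC near or above 0. Pax4, which acts early in several hormone lineages, lies on chromosome 6 at 28442333-28449352 (minus strand) and read 0.244, 0.660 and 0.763 in control mice and 0.576, 0.390 and 0.524 in treated mice. All treated mice lay between control mice 1 and 2, and the log2FC was -0.04 (SE 0.43, 95% interval -1.02 to 0.93, limma adjusted p = 0.979). Pax6 (chromosome 2, 105499234-105530952, plus strand), a factor of hormone gene expression, read 0.677, 1.32 and 0.810 in control mice and 1.25, 0.996 and 1.14 in treated mice. Its treated mice lay inside the control range, with a log2FC of 0.29 (SE 0.33, 95% interval -0.44 to 1.02, limma adjusted p = 0.759). Isl1, a LIM homeodomain factor (chromosome 13, 116434817-116446235, minus strand), read 0.586, 0.307 and 0.858 in control mice and 0.526, 0.645 and 0.865 in treated mice. Control mouse 2 was the lowest and the groups overlapped, with a log2FC of 0.25 (SE 0.41, 95% interval -0.67 to 1.17, limma adjusted p = 0.843).

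**Figure D3:**
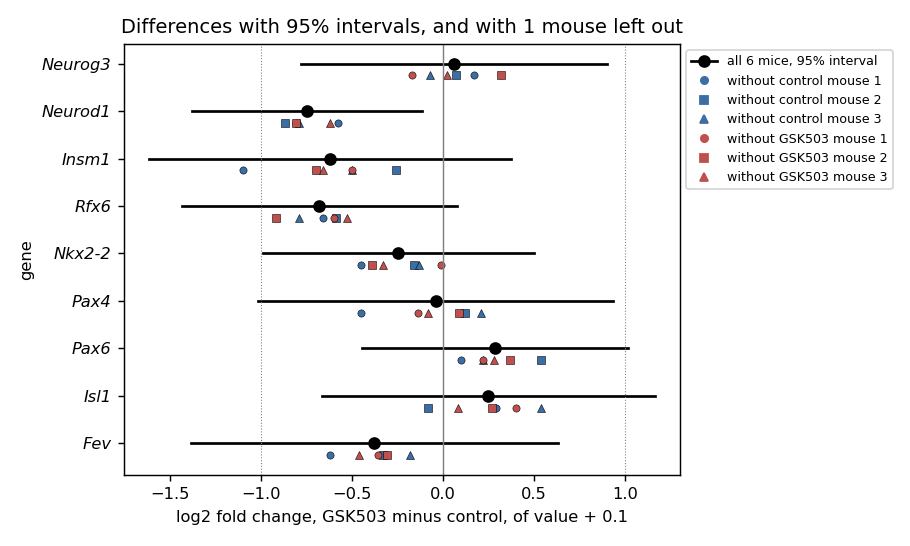
The log2FC of each factor, GSK503 minus control, on log2(value + 0.1), with a black point and 95% interval from all 6 mice and small symbols for the value with 1 mouse left out. The interval of Neurod1, from -1.38 to -0.12, is the 1 that does not cross 0 before adjustment, and the small symbols of Neurog3, Pax4 and Isl1 fall on both sides of 0.

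Among the control mice the factors did not move as a block. Control mouse 1 had the lowest control value of 5 factors, Insm1, Pax4, Pax6, Fev and Nkx2-2, but the highest of Neurod1 and Neurog3. The log2 SD among control mice ranged from 0.215 for Rfx6 to 0.968 for Insm1. Control mouse 1 also listed 0 for 4 markers of enteric neurons, Elavl4, Uchl1, Tubb3 and Chrna3, all of which were above 0 in the other control mice. Zeros were more frequent across the whole of this library, with 1201 genes at 0 against 330 to 697 in the other 5 libraries. The part of nerve tissue in these values was not tested.

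Of the 9 genes, 5 share their position with another annotated gene. Neurog3 overlaps Fam241b on the opposite strand, whose mean was 9.74 in control and 11.1 in treated mice (log2FC 0.19, limma adjusted p = 0.548). Neurod1 overlaps Cerkl on the same strand, with a mean of 0.221 in control and 0.315 in treated mice, and also a noncoding gene on the other strand. Pax6 overlaps Elp4 (log2FC -0.13, limma adjusted p = 0.726), while Fev and Nkx2-2 overlap noncoding genes. The library kit keeps strand, but whether the counting used it is not given in the sources used here. Reads of the pairs on opposite strands may therefore be shared. Neurod1 and Cerkl lie on the same strand, so strand alone cannot part their reads.

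The genes with the most similar pattern over the 6 mice were taken by the root mean square difference of the centred log2 values, among genes with a mean of at least 1. For Neurod1 these were Zc3h6 (0.090), Rhebl1 (0.095) and Moap1 (0.130), and for Neurog3 the nearest was Adgrb1 (0.066). The nearest to Rfx6 was Fli1 (0.075), to Fev Zcchc3 (0.082), to Nkx2-2 Camk2b (0.083) and to Pax6 Ckb (0.087). Pax4, Isl1 and Insm1 had less close neighbours in Plin4 (0.128), Ap1s2 (0.135) and Ifi44 (0.241). Zc3h6, Rhebl1 and Moap1 were the 3 closest to Neurod1, in that order. For every other factor the gene named was the closest. Each factor was compared with 12796 or 12797 genes over 6 mice.

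The other regulators of the lineage were read from a list of 13 genes, of which 12 were tested. None was called by limma and 4 had an unadjusted p below 0.05, against 13.3% of all genes, while limma-voom called 1, Foxa2. In this list 10 genes had a log2FC below 0, and the median was -0.23. Foxa2, a forkhead factor of gut epithelium, had the highest log2FC, 0.48 (SE 0.09), with 22.0, 24.4 and 21.6 against 31.9, 30.8 and 32.0 and a limma adjusted p of 0.0505, just outside the threshold. In 4 of the 12, treated mice lay below all controls, against 9.22% of all genes, and in 1, Foxa2, above all controls, against 9.84%. Among the former were Lmx1a, Sox4 and Rfx3, named after their values were seen. Their log2FC were -0.69, -0.26 and -0.64.

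Upstream of Neurog3, 8 genes of Notch signaling and of the secretory choice were tested, and their median log2FC was 0.18. Spdef, a factor of the secretory and goblet lineages, rose with 79.7, 90.3 and 65.0 in control and 114, 137 and 122 in treated mice (log2FC 0.68, SE 0.12, limma adjusted p = 0.0459), and it lost the call in 10 of 16 alternatives. Atoh1, the factor that opens the secretory fate, had means of 81.9 and 112 with a log2FC of 0.46 (limma adjusted p = 0.123). Atoh1, Gfi1 and Dll4, named after their values were seen, had treated mice above all controls without passing the test, which with Spdef makes 4 of 8 against 9.84% of all genes, and Notch1 had treated mice below all controls (log2FC -0.27, limma adjusted p = 0.142).

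The products of enteroendocrine cells lay downstream of these factors, and 3 of the 24 tested fell by limma while 0 rose, against 0.144% of all genes called lower and 0.498% called higher. In 8 of the 24, treated mice lay below all controls, against 9.22% of all genes, and in 0 above all controls, against 9.84%. The log2FC of the 24 ranged from -1.43 to 0.84. Chgb, a granule protein counted here among the serotonin cell products, had means of 115 ± 16.0 and 63.6 ± 9.81 (SD, n = 3; log2FC -0.85, limma adjusted p = 0.0215). Chga, its relative in the same list, followed at a log2FC of -0.70 (limma adjusted p = 0.0471), with Gcg, the gene of glucagon-like peptides, at -0.72 (limma adjusted p = 0.0393). Chgb lost its call without control mouse 1, control mouse 2 or GSK503 mouse 1 (limma adjusted p = 0.0705, 0.0853 and 0.0703). It stayed called when any other mouse was left out. Chga was not called when any 1 mouse was left out, with limma adjusted p between 0.0537 and 0.138. Gcg stayed called without control mouse 1 and lost the call without any other mouse. By class, 5 of 7 serotonin cell products, 6 of 8 peptide hormones and 8 of 9 granule and processing genes had a log2FC below 0, with medians of -0.66, -0.16 and -0.39, against 51.1% of all genes below 0. In the last class, which does not hold Chga and Chgb, limma and limma-voom called 0 genes, against 0.642% of all genes by limma. Each gave 2 genes of this class an unadjusted p below 0.05, against 13.3% of all genes by limma. There Rab3c was lowest with -0.79 (limma adjusted p = 0.269) and Syp highest with 0.10 (limma adjusted p = 0.902).

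**Figure D4:**
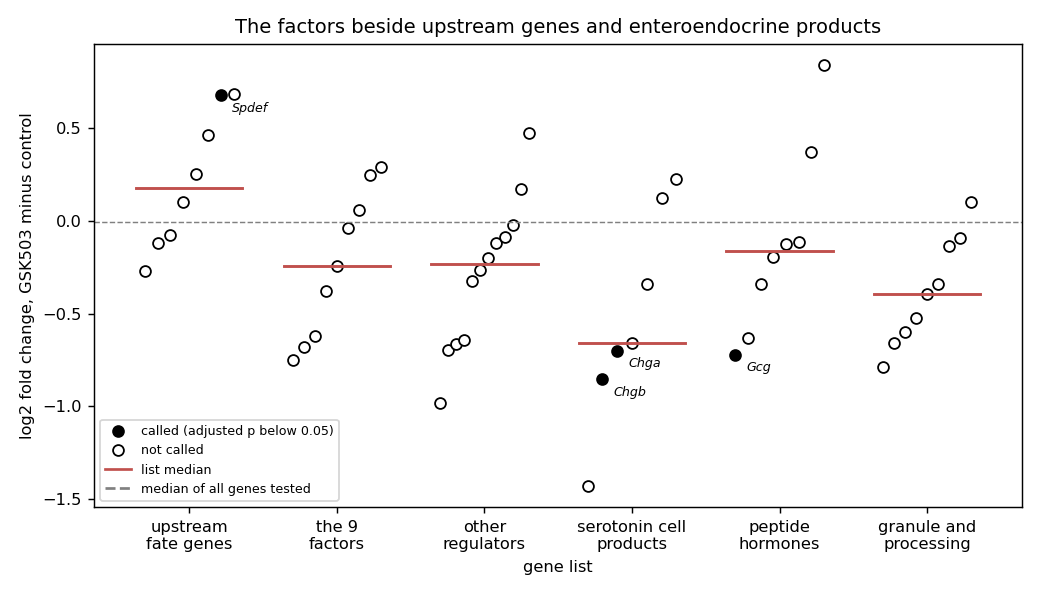
The log2FC of each tested gene by list, with filled points for genes called by limma, a red line at the list median and a dashed line at the median of all genes tested. The 9 factors have no filled point and a median of -0.25, while Chga, Chgb and Gcg among the products and Spdef among the upstream genes are filled.

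Markers of other cells moved with the groups or with single libraries, and their part in the values of the 9 factors was not tested. All 5 goblet cell markers had treated mice above all controls, against 9.84% of all genes tested, and 3 were called higher by limma, against 0.498%, with sums from 9739 to 18220 in control and from 32020 to 50170 in treated mice. None of 4 tuft cell markers was called by limma or limma-voom, against 0.642% of all genes by limma. By each test 3 had an unadjusted p below 0.05, against 13.3% of all genes by limma. The tuft cell sums were 22.7 to 34.3 in control mice against 43.1 to 49.5 in treated mice. The 6 smooth muscle markers summed to between 20.9 and 90.1 in control mice and to 4.52, 4.26 and 122 in GSK503 mice 1, 2 and 3, so GSK503 mouse 3 stood apart, and fibroblast, endothelial and macrophage sums were also highest in this mouse. Without it the log2FC was -0.62 for Neurod1, -0.53 for Rfx6 and -0.66 for Insm1.

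Of 29 tested markers of non-epithelial cells, limma and limma-voom called 0, and each gave 6 an unadjusted p below 0.05. Over all genes tested, limma called 0.642% and gave 13.3% an unadjusted p below 0.05. The 4 B cell markers summed to 3.18 to 21.3 in control and 0.789 to 3.19 in treated mice. The 5 enteric neuron markers in the table summed to 7.27 to 10.7 against 5.09 to 5.94, and Ret made up most of each sum. Ret had means of 8.37 and 4.19 (log2FC -1.01, limma adjusted p = 0.092), whereas Elavl4 was higher in every treated mouse (means of 0.269 and 0.637, limma adjusted p = 0.399), and the means of Uchl1 and Chrna3 were also higher in treated mice. The mean of Tubb3 was lower in treated mice, at 0.136 against 0.172 in control mice. The glial markers summed to 0.606 to 1.13 against 1.15 to 1.29. Fibroblast markers ranged from 50.2 to 64.6 against 22.3 to 94.2, endothelial markers from 3.27 to 5.46 against 1.78 to 7.44, and macrophage markers from 10.6 to 13.7 against 3.78 to 19.5.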

How the data were processed

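Total RNA-Seq libraries (paired-end 76 bp reads) of colonic crypts came from 3 control and 3 GSK503-treated mice, grouped by their labels. The authors aligned reads to GRCm39 with STAR, estimated counts with RSEM and applied the TMM scaling of edgeR. The deposited signal is a TMM-scaled CPM, that is, each estimated count relative to the library total times its TMM factor, and between 75.1% and 78% of values in a library were whole multiples of its step, within 0.01 count, so raw counts are not in hand. From the step, library totals of 108162848 to 135085027 counts were recovered, which bound counting error only. Whether a gene filter preceded deposit is not given in the sources used here.

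The count test of the study's methods needs counts, so limma 3.58.1 (R 4.3.3) was fitted with an intensity trend to log2(value + 0.1) over 16670 genes with at least 0.1 in at least 3 mice, with Benjamini-Hochberg adjustment. The test was also run on simulated data in which only genes with a mean above 1 were changed. Most of the factors lie below that level, so this run does not bear on them. Fold changes on this scale understate those of low genes. Alternatives were 2 other scalings, 2 pseudocounts, 2 filters, no trend, limma-voom, a replicate block, no X and Y genes, each mouse left out, and other thresholds. With 1 library per mouse, p-values weigh group differences against the spread between these mice, moderated toward the intensity trend over all genes.

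The 9 factors and the companion lists were chosen with earlier results of these data known. Named genes are the 9, Ezh2, every called gene of a list of enteroendocrine, upstream or product genes, otherwise the genes with its highest and lowest log2FC, and the 3 nearest in pattern to each factor, of which the nearest is printed for all but Neurod1. The genotype's deleted gene and 1 gene that the rule names are not reported here. Of the table's symbols, 95.4% matched 1 gene of GENCODE vM39. Promoter windows covered 250 bases.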

Additional observations from a re-analysis of the deposited data

How the results depend on the processing

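No factor was called in any of 18 alternatives, where the lowest adjusted p by limma was 0.137 (Neurod1, library size alone as scaling). Of 138 recomputed log2FC of the factors, 129 kept their sign and 9 reversed, all of them in Neurog3, Pax4 and Isl1, and the cause was not tested. Neurog3 came to -0.04 with library size alone, -0.01 with scaling to Epcam, Krt8 and Cldn7, and -0.17 to 0.32 with 1 mouse left out (-0.07 without control mouse 3, -0.17 without GSK503 mouse 1). Pax4 came to 0.00 with limma-voom and -0.45 to 0.21 with 1 mouse left out (0.12, 0.21 and 0.09 without control mouse 2, control mouse 3 and GSK503 mouse 2). Isl1 ranged from -0.08 to 0.54, with -0.08 without control mouse 2. Syp came to -0.01 with library size alone. That scaling moved the median log2FC of all genes to -0.12. Only Neurod1, Nkx2-2 and Pax6 passed the stricter filter, at least 1 in at least 3 mice. Over all genes, 83 were called higher and 24 lower, against 178 lower with library size alone, 9 higher and 7 lower without the intensity trend, and 20 to 116 higher and 7 to 100 lower with 1 mouse left out, the 100 lower without GSK503 mouse 3. The replicate block gave 23 higher, 10 lower and 0 factors, but same-numbered mice did not deviate together (r of 0.0322, -0.126 and -0.119), so the numbers do not pair the mice. Foxa2 passed the test in 2 of its alternatives and Notch1 in 1. Chga lost its call in 11 of 16, Gcg in 7 and Chgb in 4. None of these products was called without the intensity trend. With between 13 and 313 counts per library for a factor and 3 mice per group, differences inside the intervals given were not excluded.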
